A study of Mus musculus with 4 samples.

Results

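MHC-II-high B cells were B cells of the mouse spinal cord that carried many reads of H2-Aa and H2-Ab1, the genes of the alpha and beta chains of the MHC class II molecule I-A, and few reads of the surrogate light chain genes of early B cell development. A cell was taken as a B cell when Cd79a and Cd79b, the signalling chains of the B cell receptor, together reached 500 CPM (reads of a gene per 1000000 reads of that cell) and Csf1r, a microglia and macrophage receptor, stayed under 500 CPM. Of these B cells, the MHC-II-high cells had Igll1, Vpreb1 and Vpreb2 under 1000 CPM in sum and H2-Aa plus H2-Ab1 at 2000 CPM or more. The cells were thus chosen by their measured reads of these 8 genes, and the rule took 237 of 591 B cells, out of 1825 cells in all. B cells under both limits are called MHC-II-low (273 cells), and those at or over the surrogate light chain limit early B cells (81 cells).

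The cells came from the spinal cords of adult female Swiss Webster mice that were uninjured or had received a contusion at T9, collected at 7 or 60 days post-injury (dpi). The animals were not perfused, the meninges were removed, and CD45-positive events were sorted through a gate on smaller, less granular cells, so blood cells could enter and large or granular cells were under-sampled. Each condition was 1 library that pooled several mice. No comparison between conditions was therefore tested, each library is given by its value, and cells taken at 3 dpi were not analysed here.

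In the sex of the animals the reads went against the labels. At 7 dpi, 0 of 454 cells had a read of Xist, which is transcribed from the inactive X chromosome of females, and 352 had a read of a Y-linked gene, although the library was labelled female. In the uninjured library 337 of 426 cells had Xist reads and 0 had Y-linked reads, and at 60 dpi 543 of 945 cells had Xist reads and 139 had Y-linked reads. Among the MHC-II-high cells, Xist reads were found in 10 uninjured cells, 0 cells at 7 dpi and 105 cells at 60 dpi, and Y-linked reads in 0, 7 and 34 cells, with both in 19 cells at 60 dpi. The sex of the animals and the condition cannot be told apart in these libraries. After the library prefix was removed, 205 of 1609 cell barcodes occurred in more than 1 library; 52 of the 237 MHC-II-high cells had a barcode found in another library, and in 0 cases were both cells MHC-II-high.

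MHC class II molecules present peptides from taken-up antigen to CD4 T cells. In B cells they rise as the cell leaves the bone marrow stages, and antigen contact raises them further, together with the costimulatory molecules CD80 and CD86. The invariant chain, encoded by Cd74, guides the class II dimer to endosomes, where H2-DM loads the peptide and H2-O, a modulator of B cells, restrains H2-DM. Mature B cells recirculate through blood and lymphoid tissue, guided by chemokine and lipid receptors: CCR7 to T cell zones, CXCR5 to follicles, EBI2 (Gpr183) to the outer follicle and S1PR1 back into lymph and blood.

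The class II genes share a promoter module, in which an X box, a spacer and a Y box are bound by a common complex that recruits the coactivator CIITA. The stretches shown are those of the 4 genes that held both sets of letters named below, and that of H2-Aa, a gene of the rule. The sequences are from RefSeq on GRCm38.p6, on the strand of the gene, 66 bases each, with the letters GATTGG (the Y box, an inverted CCAAT) and ATGATGC (letters inside the X box) in capitals.
H2-Aa, chr17:34287857-34287922, minus strand: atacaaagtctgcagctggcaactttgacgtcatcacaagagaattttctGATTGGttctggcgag
H2-Eb1, chr17:34305757-34305822, plus strand: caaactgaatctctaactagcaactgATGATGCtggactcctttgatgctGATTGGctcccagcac
H2-DMb1, chr17:34153079-34153144, plus strand: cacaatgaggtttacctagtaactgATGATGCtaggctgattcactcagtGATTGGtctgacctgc
H2-DMb2, chr17:34145108-34145173, plus strand: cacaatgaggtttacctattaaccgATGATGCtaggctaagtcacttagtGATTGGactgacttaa
H2-Ob, chr17:34238797-34238862, plus strand: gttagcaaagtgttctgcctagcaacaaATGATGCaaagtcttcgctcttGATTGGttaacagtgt

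GATTGG began 49 bases before the start site in H2-Aa, 60 in H2-Eb1, 62 in H2-DMb1, 91 in H2-DMb2 and 58 in H2-Ob. The last 4 genes also carried ATGATGC upstream, with 17 bases between both sets of letters in H2-Eb1, 18 in H2-DMb1 and H2-DMb2, and 15 in H2-Ob. Of 16 class II and related genes looked up, 12 had a RefSeq promoter in the table, 9 of those held GATTGG on the gene's strand and 4 held both sets of letters. Among 32851 promoters of the same length, GATTGG stood in 16.1% on either strand and in 8.71% on the gene's strand, ATGATGC in 2.46% on either strand, and ATGATGC within 50 bases before GATTGG on the gene's strand in 10, or 0.0304%. The letters were picked after these promoters had been read, and a match is a description, not a bound site. No promoter is shown for H2-Ab1, Cd74, Ciita and Rfxap.

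The MHC-II-high cells made up most of the few B cells of the uninjured cord and less than that at 7 and 60 dpi. There were 16 MHC-II-high cells among 25 uninjured B cells, or 64% (exact Clopper-Pearson 95% interval 42.5 to 82.0%). At 7 dpi there were 10 among 42 B cells, or 23.8% (12.1 to 39.5%), and at 60 dpi 211 among 524, or 40.3% (36.0 to 44.6%). The uninjured interval does not overlap that at 7 dpi, and the 60 dpi interval overlaps both. Without cells that had at least 3 markers of another cell type over 100 CPM, it was 40% in the uninjured cord (2 of 5) and 55% at 60 dpi (11 of 20). The higher share then stood at 60 dpi, but with so few cells left no order can be read. Of all cells in the library the MHC-II-high cells were 3.76%, 2.20% and 22.3%. Intervals of shares and levels cover counting error only, and since reads were not tagged as molecules and mice were pooled they are narrower than the true error.

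The level of H2-Aa plus H2-Ab1, which chose the cells, was spread differently in each library. Its median was 19395 CPM in uninjured cells (lowest 5057, highest 30837), 15184 CPM at 7 dpi (2404 to 26514) and 7144 CPM at 60 dpi (2005 to 41399). The nearest MHC-II-low cells lay at 1911, 1575 and 1998 CPM. The uninjured cells were thus separated from the limit by a gap, with 3 MHC-II-low cells between 1000 and 2000 CPM and 0 MHC-II-high cells between 2000 and 4000, and 7 dpi had 4 and 2. At 60 dpi the level ran through the limit without a gap, with 84 MHC-II-low and 56 MHC-II-high cells in the same ranges, beside 10 and 12 early B cells.

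Reads of H2-Aa and H2-Ab1 were also found at 60 dpi in T cells, which do not make class II molecules in mice. The median of the sum was 527 CPM in 113 T cells at 60 dpi against 3.16 CPM in 31 uninjured T cells and 12.9 CPM in 18 T cells at 7 dpi. Of the 60 dpi T cells 17, or 15% (9.01 to 23%), reached 2000 CPM, and so did 31 of 93 Csf1r-high cells (33.3%, 23.9 to 43.9%) and 17 of 75 early B cells (22.7%, 13.8 to 33.8%). In the uninjured cord 0 of 31 T cells, which allows a share of up to 9.68%, and 4 of 260 Csf1r-high cells (1.54%) reached it. The part that such reads had in the 60 dpi cells near the limit was not tested, and for that reason the 60 dpi cells are described further on by how high their MHC-II level was.

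**Figure D1:**
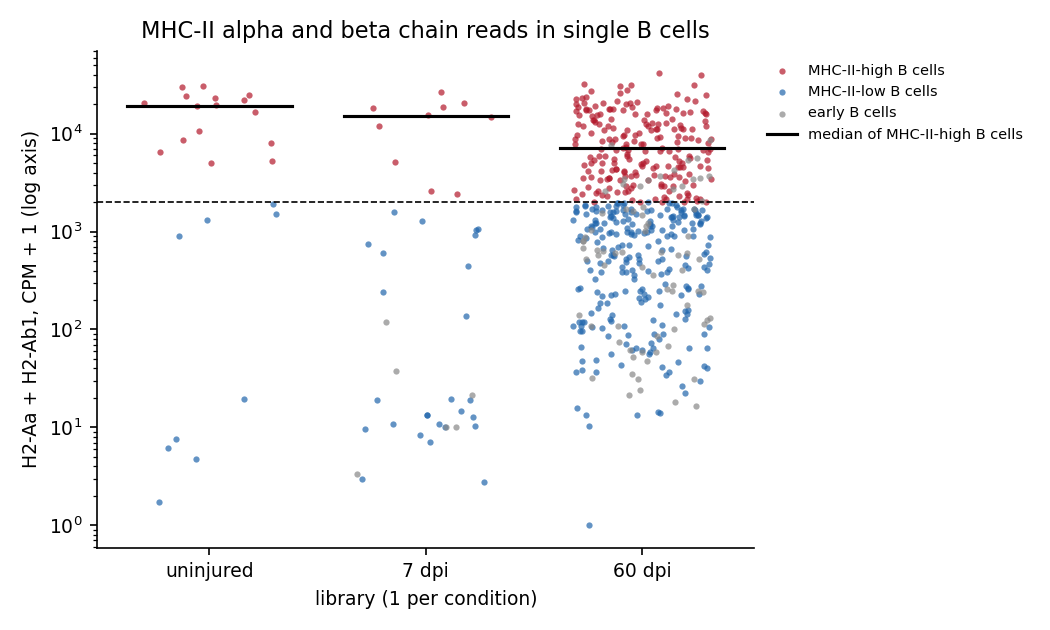
Each point is 1 B cell, placed by library (x axis, horizontal jitter only for legibility) and by the sum of H2-Aa and H2-Ab1 in CPM plus 1 (y axis, log scale), with MHC-II-high cells in red, MHC-II-low cells in blue and early B cells in grey; the dashed line is the limit of 2000 CPM and the bar the median of the MHC-II-high cells. No uninjured cell lies between 2000 and 4000 CPM, while the 211 cells at 60 dpi reach down to the line.

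Depth differed between libraries. The MHC-II-high cells had a median of 642220 reads (uninjured), 805094 reads (7 dpi) and 269943 reads (60 dpi, 7714 to 1616060), and a median of 2206, 2763 and 2051 genes. Shares of cells with a read were therefore taken after each cell had been thinned to 50000 reads, which left out 7 cells at 60 dpi and none elsewhere and gave a median of 1386, 1422 and 1488.5 genes. With 16, 10 and 204 thinned cells, a share of 0, bounded at 3 cells, allows up to 18.8%, 30% and 1.47%. Levels are summed CPM, that is all reads of a gene over all reads of the cells of that library.

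Most of the cells carried genes of mature B cells, with a minority at 60 dpi that also carried genes of early stages. Ms4a1, the gene of CD20, had a read in 15 of 16, 7 of 10 and 168 of 211 cells, Cd74 in 16, 10 and 196, Cd37, a tetraspanin of mature B cells, in 14, 10 and 190, and Cd22, an inhibitory coreceptor, in 7, 3 and 71. Fcer2a and Cr2, which mark later stages, had a read in fewer cells, 5, 3 and 41 for Fcer2a and 4, 1 and 23 for Cr2. The counts of these 6 genes were taken before thinning, at the unequal depths given above, so they are not compared between libraries. At 60 dpi 34 of 211 cells, or 16.1%, had over 100 CPM of Dntt, Rag1, Rag2 or Il7r, genes of receptor rearrangement and early lymphoid growth. It was 0 of 16 uninjured cells, which allows up to 18.8%, and 1 of 10 cells (10%) at 7 dpi. These shares do not set the 60 dpi library apart, and T cells and Csf1r-high cells also had Rag1 and Il7r reads, given further on. The 34 cells at 60 dpi had a median H2-Aa plus H2-Ab1 of 4725 CPM and 624 CPM of Ms4a1 in sum. The other 177 had 7950 CPM and 1551 CPM. The cells are called MHC-II-high B cells here, by their rule.

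Reads of other cell types were present in the MHC-II-high cells of each library, and they moved with the condition. All 14 microglia markers had reads in each library, and their summed level per cell had a median of 8869 CPM (uninjured), 31904 CPM (7 dpi) and 13908 CPM (60 dpi), close to the 7739, 32963 and 10344 CPM in T cells and under the 98003, 136982 and 66042 CPM in Csf1r-high cells. Granulocyte markers had medians of 4.74, 4354 and 1021 CPM and erythroid markers 0, 3042 and 219 CPM. T cell markers were near 0, with medians of 2.62, 0 and 11.3 CPM. At least 3 markers of another cell type were over 100 CPM in 14 of 16, 10 of 10 and 200 of 211 cells. The part of these reads in the differences between libraries was not tested, and shares in Csf1r-high cells and T cells stand beside those of the genes the results turn on.

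Of the antigen presentation genes outside the rule, H2-Eb1, Cd74, H2-DMa, H2-DMb1 and H2-DMb2 were higher in MHC-II-high than in MHC-II-low cells of all 3 libraries. H2-Eb1 (chr17:34305867-34316674, plus strand), the beta chain of the second class II molecule, stood at 991 CPM (uninjured; exact Poisson 95% interval 973 to 1010), 1146 CPM (7 dpi) and 1057 CPM (60 dpi) in the MHC-II-high cells. In the MHC-II-low cells it stood at 0, 13.2 and 151 CPM. The MHC-II-high cells thus differed little between libraries in H2-Eb1, and each lay well above the MHC-II-low cells of its own library.

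Cd74 stood at 243, 141 and 194 CPM in MHC-II-high cells and at 124, 8.68 and 50.7 CPM in MHC-II-low cells. The peptide loading genes followed: H2-DMa had 823, 838 and 391 CPM against 194, 65.8 and 109 CPM, H2-DMb1 211, 137 and 141 CPM against 31.9, 34.3 and 29.6 CPM, and H2-DMb2 1008, 627 and 396 CPM against 348, 26.3 and 58.4 CPM. In each of these 4 genes the MHC-II-high cells were the higher ones in all 3 libraries, and H2-DMa and H2-DMb2 were lowest at 60 dpi. H2-Ob stood at 379 CPM in uninjured cells, 31.6 CPM at 7 dpi and 155 CPM at 60 dpi. At 60 dpi H2-Eb1 had a read in 70.1% of thinned MHC-II-high cells and 38.5% of MHC-II-low cells, and the latter share was close to the 39.8% of Csf1r-high and 39.1% of T cells. For Cd74 the shares were 82.4%, 33.8%, 45.2% and 23.6% in the same order, and 73% of its 7 dpi reads came from 1 cell. Ciita, the coactivator, was sparse, with 43.6, 2.16 and 15.1 CPM and 80.4% of the uninjured reads in 1 cell. Ctss, the protease that trims the invariant chain, was at similar levels in each library (1440, 1424 and 1031 CPM), but 93.6% of MHC-II-high and 88.9% of MHC-II-low cells at 60 dpi had a read, as did every Csf1r-high cell.

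Set against the MHC-II-low B cells of the same library, at least 2-fold differences were common at 7 dpi, where 10 and 26 cells were compared, and uncommon at 60 dpi, where 211 and 238 were. A gene was compared when it reached 50 CPM in either class and had a read in at least 25% of that class's cells. At 7 dpi 636 of 2926 genes were at least 2-fold higher (21.7%) and 1009 lower (34.5%), and at 60 dpi 95 of 2507 were higher (3.79%) and 140 lower (5.58%). In both libraries 29 of 2086 genes were higher (1.39%) and 44 lower (2.11%). The cells were split by their own class II reads, so these counts describe the split and test nothing. The uninjured library had 9 MHC-II-low cells and was left out of these counts.

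Of the 29 genes higher in both libraries, the antigen presentation list held 5 of its 7 compared genes (H2-Eb1, Cd74, H2-DMa, H2-DMb1 and H2-DMb2), with a median log2 ratio nearest 0 of 1.91. Mature B identity held 2 of 14 (Ms4a1 and Bank1), the follicular list 2 of 10 (Faim3 and Stk17b), the activation list 1 of 9 (Nr4a1) and the chemokine and lipid receptors 1 of 3 (Gpr183). Among the 44 lower genes, the early B list held 1 of 9 (Il7r), the plasma cell list 1 of 4 (Irf4), the cell cycle list 1 of 5 (Stmn1) and the follicular list 1 of 10 (Bach2). The lists of adhesion molecules (0 of 4), immediate early genes (0 of 11) and B cell receptor signalling (0 of 9) held none in either direction.

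At 60 dpi alone, without the 7 dpi library, antigen presentation had 6 of 8 compared genes higher and 0 lower, H2-Ob being added, with a median log2 ratio of 1.87 against -0.04 over all genes compared. Mature B identity had 3 of 15 higher (Ms4a1, Cd22 and Bank1), the follicular list 3 of 10 (Cd55, Faim3 and Stk17b), activation 3 of 13 (Cd83, Nr4a1 and Nfkb1) and B cell receptor signalling 2 of 10 (Plcg2 and Prkcb), each with 0 lower except the follicular list with 1 (Bach2). Early B development had 0 of 11 higher and 2 lower (Il7r and Cecr2), with a median of -0.57, and cell cycle 0 of 6 and 2 (Mki67 and Stmn1), with a median of -0.86. Of 2 T cell markers compared both were lower, of 5 granulocyte markers 1 was higher (Retnlg), and of 11 microglia markers 0 were apart in either direction. Without the 60 dpi cells that had Y-linked reads, 117 of 2361 genes compared were higher and 178 lower, together 12.5%, against 9.37% with them.

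The 8 highest of these ratios were those of Bank1, H2-Eb1, H2-DMb2, Faim3, H2-DMb1, Cd74, Ms4a1 and H2-DMa, with log2 ratios from 1.83 to 3.14 in the library where each was nearer 0. Plaur, the urokinase receptor, followed at 249 CPM against 71.9 CPM at 60 dpi, then Scd1, a fatty acid desaturase, at 113 CPM against 37.7 CPM. The list also held Retnlg, a granulocyte gene, at 65.3 CPM against 22.3 CPM. On the low side stood Ctla2a (16.9 CPM against 90.3 CPM), the cell cycle inhibitor Cdkn1a (18.4 CPM against 90.2 CPM), the microtubule regulator Stmn1 (42.0 CPM against 167 CPM) and Tifa, an adaptor of NF-kappaB signalling (174 CPM against 567 CPM).

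**Figure D2:**
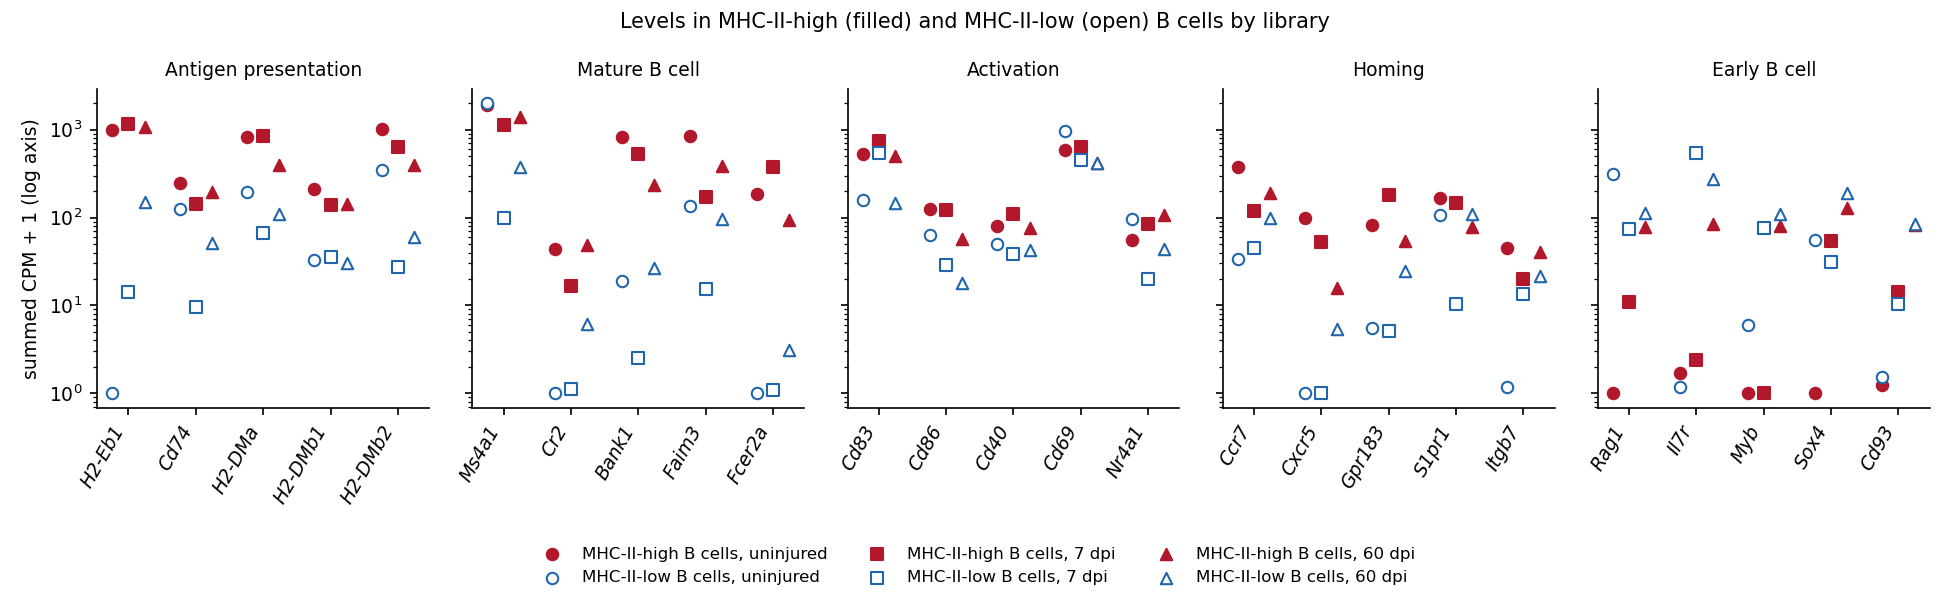
Summed CPM plus 1 (log axis) of 25 genes in MHC-II-high B cells (filled red) and MHC-II-low B cells (open blue) of the uninjured (circles), 7 dpi (squares) and 60 dpi (triangles) libraries, 1 library per condition with no error bars. The 5 antigen presentation genes lie higher in MHC-II-high cells in each library, and Cd69 lies at 419 CPM in both classes at 60 dpi.

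Maturation genes came in different patterns. Ms4a1 (chr19:11249675-11266241, minus strand) stood at 1886 CPM in uninjured MHC-II-high cells, 1139 CPM at 7 dpi and 1385 CPM at 60 dpi, against 1978, 96.5 and 377 CPM in MHC-II-low cells. The uninjured cells of both classes, with 9 MHC-II-low cells, were thus alike in Ms4a1, and the classes lay apart at 7 and 60 dpi. At 60 dpi it had a read in 72.1% of thinned MHC-II-high cells (65.4 to 78.1%; 79.6% without thinning), 35.5% of MHC-II-low cells (29.3 to 42.0%; 49.2% without thinning), 24.7% of Csf1r-high cells and 23.6% of T cells. The median depths of those Csf1r-high and T cells before thinning were 285681 and 358977 reads.

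Bank1, a scaffold of B cell receptor signalling, stood at 816, 525 and 233 CPM against 17.8, 1.54 and 25.6 CPM in MHC-II-low cells. Faim3 (the older symbol of Fcmr, an Fc receptor for IgM) stood at 837, 170 and 381 CPM against 134, 14.3 and 96.3 CPM. Both genes were higher in the MHC-II-high cells of every library, and Bank1 had its lowest level at 60 dpi.

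Fcer2a (chr8:3681737-3694175, minus strand), the gene of CD23 and a marker of follicular B cells, was found in a minority. It stood at 183, 371 and 92.5 CPM in MHC-II-high cells and at 0, 0.0909 and 2.10 CPM in MHC-II-low cells, but 86.4% of its uninjured reads and 80.3% of its 7 dpi reads came from 1 cell. At 60 dpi, where the top cell held 13.6%, it had a read in 18.1% of thinned MHC-II-high cells (13.1 to 24.1%; 19.4% without thinning) and 3.42% of MHC-II-low cells (1.49 to 6.63%), against 1.08% of Csf1r-high cells and 2.73% of T cells. Cr2, the gene of CD21, was rarer, with a read in 7.84% and 2.14% of cells. Ly6d, which marks B lineage commitment, was alike in both classes at 60 dpi at 2029 and 1903 CPM.

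Genes of the early stages were sparse in the MHC-II-high cells of the uninjured cord. Rag1 stood at 0, 9.85 and 76.6 CPM against 310, 73.9 and 110 CPM in MHC-II-low cells, and Il7r at 0.689, 1.41 and 84.2 CPM against 0.173, 544 and 271 CPM. Myb, a regulator of progenitor growth, had no read in uninjured or 7 dpi MHC-II-high cells and 78.0 CPM at 60 dpi. Sox4 had 0, 52.5 and 128 CPM, with 99.6% of the 7 dpi reads in 1 cell. These genes were thus highest at 60 dpi, although the log2 ratio of Il7r between 60 and 7 dpi turned to -0.54 with the MHC-II limit at 1000 CPM. At 60 dpi Rag1 had a read in 11.3% of thinned MHC-II-high cells, 25.2% of MHC-II-low cells, 45.2% of early B cells, 7.53% of Csf1r-high cells and 11.8% of T cells. Il7r had a read in 16.7%, 34.2%, 35.6%, 20.4% and 31.8% of the same cells. In the MHC-II-high cells as a whole, the Il7r share lay under that of both other cell types and the Rag1 share between them. Mki67, a marker of dividing cells, was likewise found in 11.3% of MHC-II-high and 10.8% of Csf1r-high cells.

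Immunoglobulin genes were mostly of the unswitched kind. Ighm, the IgM heavy chain, stood at 3430.1 CPM in uninjured cells, 1526 CPM at 7 dpi and 2424 CPM at 60 dpi. With a heavy chain counted from 1000 CPM, Ighm led in 10 of 16, 6 of 10 and 148 of 211 cells, and no heavy chain reached it in 6, 4 and 52. A switched class led in 11 cells at 60 dpi (Igha in 6 and Ighg2b in 5), of which 6 also had Ighm over 1000 CPM, and in 0 cells of the other libraries. Ighd was not analysed here. Ighg2b reads alone were no mark of switching, since at 60 dpi 40.7% of MHC-II-high cells had one, as did 47.3% of Csf1r-high cells and 37.3% of T cells. Kappa was the only light chain over 1000 CPM in 7, 8 and 104 cells, lambda in 1, 1 and 5, and both passed it in 8, 1 and 91. Lambda was measured by Iglc2 alone. The part that reads from other cells had in the counts with both chains was not tested. Of the plasma cell genes, Prdm1 had 0, 1.62 and 7.19 CPM and Sdc1 0, 0 and 6.68 CPM, while Xbp1, also used by other secretory cells, had 68.6, 18.4 and 102 CPM and Irf4 49.9, 0.108 and 29.6 CPM.

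Activation genes were present in each library. Cd83 (chr13:43784775-43803132, plus strand), which holds class II molecules at the cell surface, stood at 531, 748 and 500 CPM against 156, 545 and 144 CPM in MHC-II-low cells. Its share at 60 dpi was 69.1% of thinned MHC-II-high cells and 46.2% of MHC-II-low cells, but 66.7% of Csf1r-high cells also had a read. Nr4a1, an early target of antigen receptor signals, stood at 54.4, 83.3 and 105 CPM against 95.4, 19.1 and 43.1 CPM. It was thus higher in MHC-II-high cells at both times after injury and lower in the uninjured cord, and at 60 dpi it had a read in 47.5% of MHC-II-high, 27.8% of MHC-II-low, 30.1% of Csf1r-high and 42.7% of T cells. At 7 dpi 1 of the 10 cells held 72.5% of the Cd83 reads and 78.4% of the Nr4a1 reads.

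The costimulatory gene Cd86 stood at 123, 119 and 56.0 CPM against 62.5, 28.2 and 16.9 CPM, with 87.7% of the 7 dpi reads in 1 cell and a read in 16.2% of MHC-II-high, 6.41% of MHC-II-low and 22.6% of Csf1r-high cells at 60 dpi. Cd80, its partner, was nearly absent, with 0, 0 and 0.110 CPM. Cd40, the receptor for T cell help, stood at 79.9, 109 and 75.9 CPM against 49.4, 37.6 and 41.2 CPM. Cd69, which holds activated lymphocytes in tissue, had 580, 634 and 419 CPM against 950, 447 and 419 CPM and so did not separate the classes. Bcl6, the regulator of germinal centre B cells, was rare, with 11.2, 0 and 8.52 CPM. Il10, a cytokine of regulatory B cells, had no read in the MHC-II-high cells of any library.

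Of the homing receptors, Ccr7 (chr11:99144196-99155077, minus strand) was the most widely found. It stood at 376, 119 and 188 CPM in MHC-II-high cells and at 32.4, 44.3 and 98.2 CPM in MHC-II-low cells. It was higher in the MHC-II-high cells of each library, and higher in uninjured cells than after injury. It had a read in 81.2% of uninjured thinned MHC-II-high cells (54.4 to 96.0%), 50% at 7 dpi and 43.6% at 60 dpi (36.7 to 50.7%; 55.5% without thinning). At 60 dpi the share was 23.1% in MHC-II-low cells (17.8 to 29.0%; 36.6% without thinning), 17.2% in Csf1r-high cells (10.2 to 26.4%) and 26.4% in T cells.

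Gpr183 (chr14:121952551-121965195, minus strand) stood at 81.1, 177 and 53.1 CPM against 4.50, 4.09 and 24 CPM, with 58.8% and 57.7% of the reads of the uninjured and 7 dpi libraries in 1 cell. At 60 dpi it had a read in 20.1% of MHC-II-high and 11.1% of MHC-II-low cells, and in 31.2% of Csf1r-high cells. Cxcr5 stood at 97.1, 51.7 and 14.6 CPM against 0, 0 and 4.34 CPM, and its share at 60 dpi was 6.86% against 4.27%, with 1.08% of Csf1r-high cells. Its level was thus lowest at 60 dpi, but its 7 dpi reads all came from 1 cell.

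S1pr1 stood at 167, 147 and 77.1 CPM against 106, 9.50 and 108 CPM. It was the higher in MHC-II-high cells of the uninjured and 7 dpi libraries and the lower at 60 dpi, where 25.5% of MHC-II-high and 32.5% of MHC-II-low cells had a read. Cxcr4, a receptor for bone marrow retention, was low at 7.32, 51.4 and 16 CPM. Cxcr3 had 0, 0 and 3.75 CPM, with 99.3% of the 60 dpi reads in 1 cell, while 19.1% of T cells had a read. Itga4, the integrin chain that binds VCAM-1, was found in 31.9% of MHC-II-high and 23.5% of MHC-II-low cells at 60 dpi, and Itgb7, its gut-homing partner, in 15.2% and 8.97%. T cells had higher shares of both integrin genes, 37.3% and 36.4%.

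**Figure D3:**
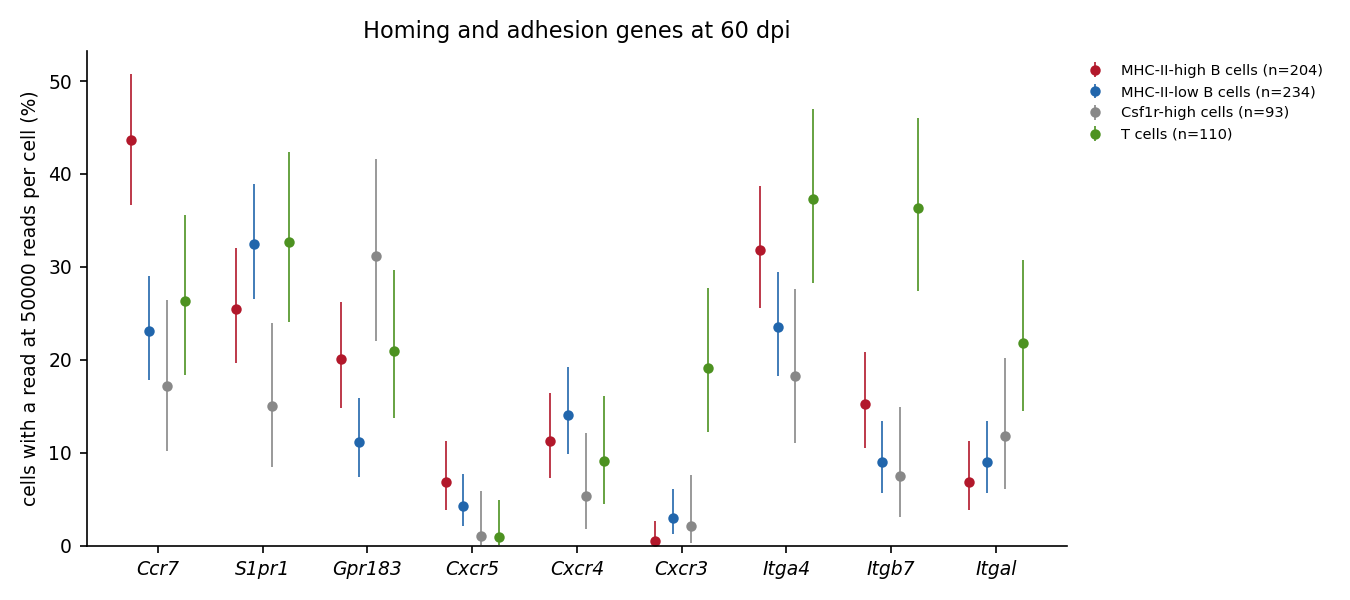
Share of cells with a read at 50000 reads per cell (y axis, percent) for 9 homing and adhesion genes (x axis) at 60 dpi in 204 MHC-II-high B cells (red), 234 MHC-II-low B cells (blue), 93 Csf1r-high cells (grey) and 110 T cells (green); bars are exact Clopper-Pearson 95% intervals, counting error only. Ccr7 is the gene where MHC-II-high cells lie above the intervals of the other 3 classes.

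Within the 60 dpi library the genes were followed over 6 ranges of H2-Aa plus H2-Ab1, from under 500 CPM through 500 to 2000 CPM (both MHC-II-low) to 2000 to 4000, 4000 to 8000, 8000 to 16000 and from 16000 CPM (MHC-II-high). The ranges held 111, 127, 56, 56, 55 and 44 cells with a median of 273923, 324470, 291551, 294499, 283508 and 208815 reads. The MHC-II-high cells were not uniform: those just over the limit resembled MHC-II-low cells in several genes, and Fcer2a, Ccr7, Gpr183 and Cxcr5 had their highest shares from 8000 CPM. Other genes of the follicular and receptor lists did not share this, among them Foxo1, with shares of 25.7% in the lowest and 9.52% in the top range, and Cxcr4, with 11.9% and 4.76%.

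Fcer2a showed this in both measures. Over the 6 ranges its summed level was 3.31, 1.11, 5.40, 45.2, 175 and 195 CPM, and its share 3.67%, 3.20%, 3.70%, 13%, 27.8% and 31.0%. The cells from 2000 to 4000 CPM thus stood with the MHC-II-low cells. Ccr7 had shares of 20.2%, 25.6%, 25.9%, 37.0%, 61.1% and 52.4% and levels of 63.5, 127, 39.3, 147, 288 and 363 CPM. Faim3 had shares of 22.0%, 29.6%, 37.0%, 40.7%, 53.7% and 59.5%, higher in each higher range. Bank1 parted at the limit, with shares of 10.1%, 8.80%, 24.1%, 31.5%, 40.7% and 45.2%. Its levels were 19.5, 30.7, 182, 253, 259 and 247 CPM.

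Of the class II genes, H2-Eb1 had levels of 136, 164, 332, 540, 1659.8 and 2290.2 CPM and H2-DMb2 39.9, 73.6, 136, 313, 444 and 952 CPM, so both were higher in each higher range. Cd74 had shares of 25.7%, 40.8%, 66.7%, 79.6%, 90.7% and 95.2%. Ms4a1 had 163, 554, 1211, 1166, 1616 and 1701 CPM, so it was higher in each MHC-II-high range than in both MHC-II-low ranges. Cd83 and Nr4a1 were highest in the top range, with shares of 81.0% and 64.3% against 63.0% and 31.5% at 2000 to 4000 CPM. Gpr183 reached 38.1% and Cxcr5 19.0% there, against 11.1% and 0% at 2000 to 4000 CPM, where 0 of 54 cells allows up to 5.56%.

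Early genes ran the other way. Rag1 had shares of 21.1%, 28.8%, 22.2%, 13%, 5.56% and 2.38%, and Myb of 32.1%, 31.2%, 25.9%, 11.1%, 18.5% and 4.76%. Akap12, of the early B list, had shares of 35.2% in cells at 2000 to 4000 CPM and 14.3% in the top range (levels of 383 and 14.5 CPM, with 49.2% and 50.9% of the reads in 1 cell), and Cd24a had levels of 457 and 48.2 CPM. Vpreb3, which stays on past the pre-B stage, had shares of 75.9% and 54.8% in the same ranges. The cells from 2000 to 4000 CPM thus held Rag1 and Myb at shares like those of MHC-II-low cells, and the cells from 8000 CPM held less. Il7r parted at the limit instead, with 32.1%, 36.0%, 16.7%, 13%, 18.5% and 19.0%. Ly6d, Cd69, Pax5 and S1pr1 showed no such trend, with S1pr1 at 31.2%, 33.6%, 20.4%, 27.8%, 25.9% and 28.6%.

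**Figure D4:**
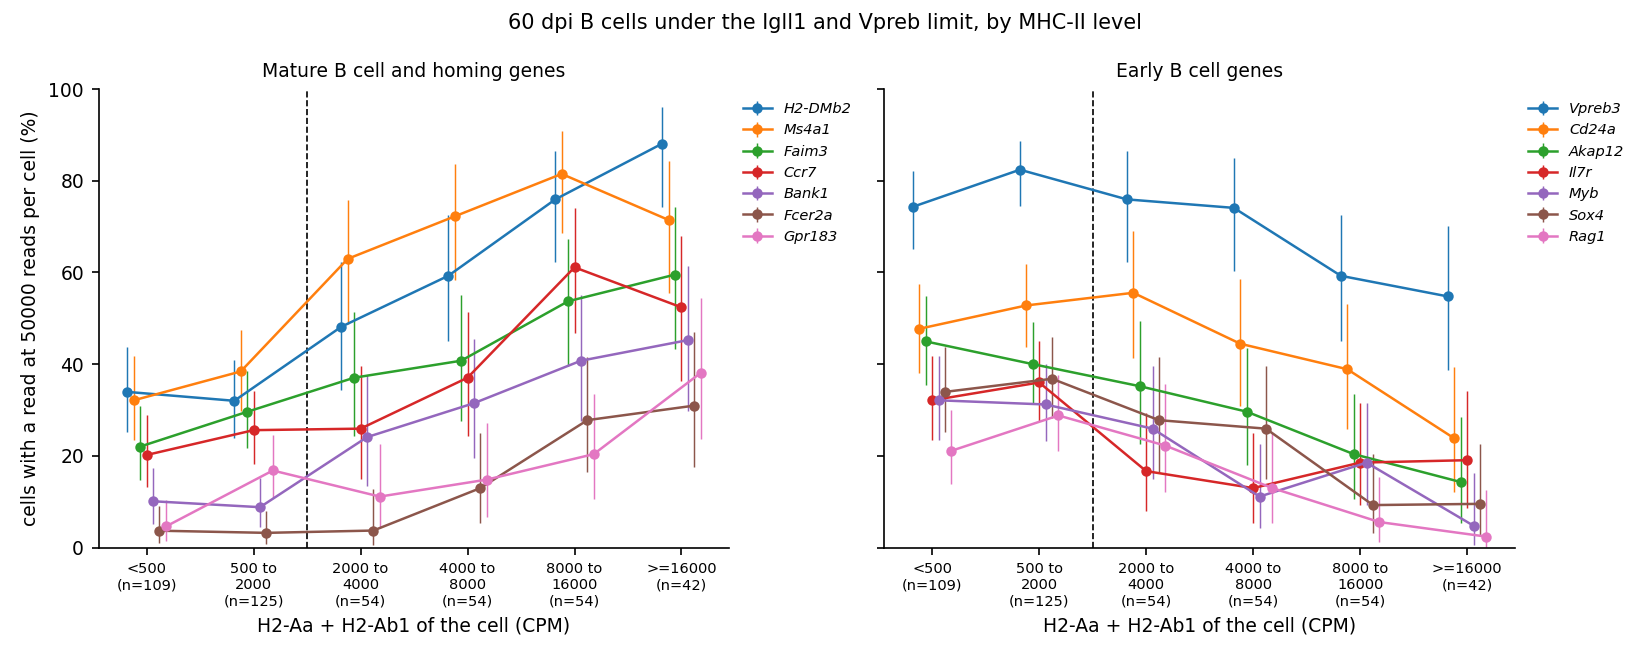
Share of 60 dpi B cells with a read at 50000 reads per cell (y axis, percent) by the cell's H2-Aa plus H2-Ab1 in CPM (x axis, 6 ranges with the number of thinned cells), for mature B cell and homing genes (left) and early B cell genes (right); bars are exact Clopper-Pearson 95% intervals and the dashed line is the 2000 CPM limit. Fcer2a stays under 4% up to 4000 CPM and reaches 31.0% in the top range, and Rag1 ends at 2.38%.

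Differences between the libraries were many, and reads of other cell types differed between them as well. Between 7 dpi and uninjured MHC-II-high cells, 769 of 2687 genes compared were at least 2-fold higher (28.6%) and 858 lower (31.9%), a balance that turned to 1009 and 804 at a Cd79 limit of 1000 CPM. Between 60 dpi and uninjured, 627 of 2653 were higher (23.6%) and 504 lower (19%), and between 60 and 7 dpi, 763 of 2624 were higher (29.1%) and 566 lower (21.6%), which turned to 777 and 789 at the same Cd79 limit. With 16 and 10 cells in the smaller libraries, a single cell could move a gene past 2-fold, and every list count has to be read against these shares.

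Genes of other cell types were among the highest ratios over the uninjured cells. At 7 dpi they included Ngp, a granule protein of neutrophils (1788 CPM against 1.38 CPM in uninjured cells), the haemoglobin gene Hbb-bs (579 CPM against 0) and S100a8 (1222 CPM against 1.55 CPM). At 60 dpi they included Spp1, a gene of reactive microglia (1701 CPM against 0), Ccl5 (862 CPM against 0.431 CPM) and Lyz2 (1513 CPM against 2.15 CPM). Between 60 and 7 dpi the highest ratios were those of Xist (502 CPM against 0) and the myelin gene Mobp (309 CPM against 0.325 CPM). Lower at 60 dpi than in uninjured cells were Prorsd1 (36.4 CPM against 355 CPM) and Phf6 (53.2 CPM against 466 CPM).

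By list, early B development had 5 of 9 compared genes higher at 60 dpi than in uninjured cells and 0 lower (Il7r, Cd93, Sox4, Smarca4 and Akap12), with a median log2 ratio of 1.93 against 0.01 over all genes compared. Antigen presentation had 0 of 9 higher and 3 lower (H2-DMa, H2-DMb2 and H2-Ob), with a median of -0.48. Mature B identity had 1 of 17 higher (Pou2af1) and 4 lower (Cd53, Bank1, Blk and Cd180). The follicular list had 3 of 14 higher and 5 lower (among them Faim3 and Stk17b). Chemokine and lipid receptors had 0 of 3 higher and 1 lower (S1pr1), and adhesion molecules 2 of 7 higher and 1 lower. Activation had 3 of 16 in each direction, and among the MHC class I and interferon genes Ifi27l2a was higher at 60 dpi (619 CPM against 31.4 CPM). Ifi27l2a was found in 47.1% of MHC-II-high cells at 60 dpi, but also in 37.6% of Csf1r-high and 47.3% of T cells.

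At 7 dpi mature B identity had 1 of 17 genes higher and 7 lower than in uninjured cells (among them Cd22, Pax5, Ebf1, Blk, Fcrla and Cd180), with a median log2 ratio of -0.73 against -0.01 over all genes compared. Antigen presentation had 1 of 9 higher (H2-Oa) and 1 lower (H2-Ob). The follicular list had 4 of 13 higher and 7 lower, and chemokine and lipid receptors 3 of 5 higher (Cxcr4, Gpr183 and P2rx4) and 1 lower (Ccr7). From 7 to 60 dpi, mature B identity had 5 of 15 higher (among them Cd22, Pax5, Ebf1 and Spib), with 2 lower (Pou2af1 and Bank1), early B development 5 of 9 with 1 lower (Cecr2), and chemokine and lipid receptors 0 of 5, with 3 lower (Cxcr4, Gpr183 and P2rx4). Each library enters a pair of these 3 comparisons, so they are not independent.

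Within the 60 dpi library the cells with and without sex-linked reads differed in depth, with a median of 246554 reads for Xist alone, 370191 for Y-linked alone, 549982 for both and 246146 for neither. The 86 cells with Xist reads alone had a median H2-Aa plus H2-Ab1 of 7086 CPM and 1823 CPM of Ms4a1 in sum, the 15 cells with Y-linked reads alone 3481 CPM and 492 CPM, the 19 cells with both 5837 CPM and 941 CPM, and the 91 cells with neither 9022 CPM and 1390 CPM. Ccr7 stood at 223, 139, 88.2 and 214 CPM in the same order, and Fcer2a at 62.8, 86.7, 23.6 and 156 CPM.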

How the data were processed

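CD45-positive cells of the spinal cord were profiled with the ICell8 3' chemistry, which counts reads and not molecules. Per the labels and the study's methods, the authors assigned reads to cells by barcode, aligned these with STAR on mm10 and made counts for each gene. Seurat is named in the submitters' processing notes. The deposited values are raw counts without normalization, for 39066 genes and 1825 cells, and 0 columns belonged to no library. The gene annotation, the counting function and the filters on cells were not given in the sources used here. The uninjured, 7 dpi and 60 dpi libraries summed to 306721154, 365066887 and 382779731 reads, and their median cell had 554836, 663734 and 287134.

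All cells were kept and no doublet caller was run, so doublets were not removed here. Cells were classed by CPM over all reads of the cell, with T cells at 500 CPM or more of summed T cell genes. Levels are summed CPM and ratios log2 of CPM plus 1. A gene was compared from 50 CPM in 1 of both groups with a read in at least 25% of that group's cells, and counted from 2-fold. Each condition was 1 library, so cells served for no test; Clopper-Pearson and Poisson intervals at 95% cover counting error only. Shares were taken at 50000 reads per cell with a fixed seed. Counts of cells with a read of the mature B cell genes and of sex-linked genes were taken before thinning. Gene lists, 351 of 357 looked-up genes found, were taken whole; a few of their genes are not reported here. Beside them, the genes named per library comparison are from the 10 highest and 10 lowest ratios with under 50% of the higher group's reads in 1 cell. Against MHC-II-low cells they are from 15 of each, without that limit on single cells. The members and lists were chosen with earlier results of these data known. Coordinates of genes are from GENCODE on GRCm38 and promoter sequences from RefSeq. The scripts, tested on simulated data, used Python 3.11.15, numpy 2.4.6, scipy 1.17.1, pandas 2.3.3 and matplotlib 3.10.9. Alternatives changed the limits of the rule, the depth, the filter and the cells kept.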

Additional observations from a re-analysis of the deposited data

Results flagged for a closer look

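Y-linked reads were absent from the uninjured library. Among the genes compared in MHC-II-high cells, the Y-linked Eif2s3y stood at 7.96 CPM at 60 dpi against 149 CPM at 7 dpi. A read of a Y-linked gene was found in 7 of 10 MHC-II-high cells at 7 dpi and in 34 of 211 at 60 dpi, against 0 of 16 uninjured cells. All 3 libraries were labelled female. The cause was not tested.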

How the results depend on the processing

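The share of B cells that were MHC-II-high at 60 dpi was 56.3% with the MHC-II limit at 1000 CPM and 29.6% with it at 4000 CPM. Without cells that had at least 3 markers of another cell type it was 40% in uninjured (2 of 5) and 55% at 60 dpi (11 of 20), with 0 MHC-II-high cells left at 7 dpi. When the markers of T cells, NK cells, granulocytes, erythroid cells and glia alone were used, it was 11.1% at 7 dpi (1 of 9). With that choice, made after seeing the data, 384 of 2414 genes compared were apart between MHC-II-high and MHC-II-low cells at 60 dpi (15.9%, otherwise 9.37%). Between 60 dpi and uninjured MHC-II-high cells it was 1071 of 2556 (41.9%, otherwise 42.6%). With the top cell of each gene left out, 1051 of 1673 genes compared were apart between 7 dpi and uninjured (62.8%, against 60.6% with it). That choice takes more from small groups by construction and moved the split to 1020 higher and 148 lower between 60 dpi and uninjured (median of all genes 0.84), to 1187 and 119 between 60 and 7 dpi (median 1.25), to 258 and 893 against MHC-II-low cells at 7 dpi (median -0.72), and to 20 and 50 in both libraries. Thinned to 50000 reads, 642 of 1967 genes compared were apart between 60 dpi and uninjured (32.6%, unthinned 42.6%). Between 60 and 7 dpi it was 739 of 1884 (39.2%, unthinned 50.6%). Against MHC-II-low cells it was 907 of 1968 at 7 dpi (46.1%, unthinned 56.2%), 97 of 1720 at 60 dpi (5.64%, unthinned 9.37%) and 41 in both. Without the filter on low values, 6444 of 9647 genes were apart between 7 dpi and uninjured (66.8%) and 8733 of 15654 between 60 dpi and uninjured (55.8%). Between 60 and 7 dpi it was 9437 of 15606 (60.5%). The last 2 split 6996 to 1737 and 7796 to 1641. With the limit at 1000 CPM the split in both libraries was 32 higher and 25 lower. The larger side also turned between 7 dpi and uninjured at a Cd79 limit of 1000 CPM (1009 higher and 804 lower) and an MHC-II limit of 1000 CPM (745 and 688), and between 60 and 7 dpi at that Cd79 limit (777 and 789). Of 2496 alternative values of 209 log2 ratios, 2326 kept their side, 161 went under 2-fold and 9 turned: H2-Q7 (7 dpi over uninjured, 0.10) and Il7r (60 over 7 dpi, -0.54) at a limit of 1000 CPM; Cd9 (-0.70) and Nfkbia (-0.75), 7 dpi over uninjured, and Bhlhe40 (60 over 7 dpi, -0.13) at a Csf1r limit of 100 CPM, which left 5 cells at 7 dpi; and with mean CPM or thinning Rgs10 (7 dpi over uninjured, 0.43 and 0.52) and Prkcb (60 over 7 dpi, -0.35 and -0.55). None of the 9 was a ratio against MHC-II-low cells, but such a ratio counted as turned only where it turned in both libraries. A turn in 1 library counted as under 2-fold, and settings that left under 10 cells of a class were not counted. The absence of turns there thus says little about these ratios. The causes of these changes were not tested. Of 126 alternative shares of cells with a read, 117 lay within the 95% interval of the main value. With 16 and 10 cells the uninjured and 7 dpi intervals are wide, so this count says little about those shares. No paired analysis was possible because each condition was 1 library. The number of cells, 16 and 10, limits the uninjured and 7 dpi libraries, and depth, at a median of 269943 reads, the 60 dpi cells.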
